A study of Triticum aestivum with 18 samples.

Results

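Sucrose and fructan are the mobile carbohydrates that a germinating wheat grain can use before starch breakdown gets under way. Sucrose-phosphate synthase makes sucrose phosphate, the committed step of sucrose synthesis, whereas sucrose synthase and the invertases cleave sucrose. Sucrose:fructan 6-fructosyltransferase (6-SFT) moves fructosyl units from sucrose onto growing fructan chains, and fructan exohydrolases remove them again. Abscisic acid (ABA) is the hormone that maintains dormancy and delays germination, and hydrogen peroxide (H2O2) is a reactive oxygen species that promotes germination in many seeds.

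The genes described here were those of 8 GenBank accessions that carry an enzyme of this small pathway. They were 6-SFT (AB029887), fructan 6-exohydrolase or 6-FEH (BJ219294), 4 sucrose-phosphate synthases (SPS2, CD910522; SPS5, CD454434; SPS9, CA716620; SPS1, BT009079), sucrose synthase type I or Ss1 (CD869165) and an alkaline invertase, AInv (CA658075). All 8 accessions matched the array, with 9 probe sets of 61179 wheat probe sets, since 6-SFT had a pair of them. All 9 passed the filter on dim probe sets (a minimum signal of 20 in 3 or more arrays), which left 57992 probe sets for testing. The accessions were taken from the study's own lists of probe sets that differed between treatment and CK on these same arrays. Every treatment value of these 9 probe sets is therefore given as a description, without a test. The comparison that those lists did not use, embryo against endosperm averaged over the 3 conditions, was tested. It rests on the same arrays, and a treatment difference that is unlike in embryo and endosperm shifts this average. The tissue tests of these 9 probe sets are therefore not free of how the accessions were chosen.

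Seeds of 1 Chinese cultivar of bread wheat (Triticum aestivum, hexaploid) imbibed pure water (CK), 100 mg/L ABA or 100 μmol H2O2 for 16 h, when the radicle had just emerged. Embryo and endosperm were dissected by hand, and each of the 6 groups (CK_embryo, ABA_embryo, H2O2_embryo, CK_endosperm, ABA_endosperm and H2O2_endosperm) was measured on 3 Affymetrix Wheat Genome Arrays, labelled as biological replicates. A value is the MAS5 signal, which combines the short probes of a probe set into 1 number that is comparable between arrays but not between probe sets. A tissue sample with fewer cells of a type and one with less RNA per cell cannot be told apart in such bulk signals. Several probe sets can detect more than 1 transcript: Affymetrix marks those that match several transcripts of a gene with a, those shared by different genes with s and those with probes likely to hybridise elsewhere with x. Homoeologous copies from the 3 subgenomes were not separated.

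H2O2_embryo replicate 1 stood apart from the other arrays, with a median signal of 138 against 59.0 to 81.0 on the other 17 arrays and a lowest correlation of 0.848 with its own group. Values of the genes below that turned in sign or moved by over 1.5 times when it was left out are given both ways. The dissection was checked with 6 probe sets of embryo genes (the lectin WGA2 and the late embryogenesis proteins Em). All 6 were higher in embryo over the 3 conditions by limma, beside 19.0% of all probe sets. Their summed signal was 249570 to 272804 in ABA_embryo and 128867 to 146495 in ABA_endosperm, but under CK it was 32359 to 35474 in embryo and 34135 to 36026 in endosperm, so that the sum did not set the tissues apart there. Of 20 tested probe sets of endosperm storage proteins and puroindolines, 8 were higher in endosperm and 1 in embryo, beside 12.2% and 19.0% of all probe sets. Their summed signals were 4794 to 9739 in embryo arrays and 5118 to 6973 in endosperm arrays. Both ends of the embryo range came from H2O2_embryo, and the sums were 5532 to 5854 in CK_embryo and 5796 to 6033 in ABA_embryo. Neither list was near 0 in the other tissue, and the part of carried-over tissue in the tissue differences below was not tested.

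The signals of 6-SFT were the lowest under ABA in both tissues. The probe set marked a read 2456, 2163 and 2373 in CK_embryo, 307, 312 and 399 in ABA_embryo, and 1492, 2789 and 2709.9 in H2O2_embryo. In endosperm it read 2767, 2694 and 2613 under CK, 648, 1002 and 957 under ABA, and 1892, 1770.0 and 1693 under H2O2. Every ABA array lay below every other array of its tissue, by a mean of 6.91-fold in embryo and of 3.15-fold in endosperm against CK (log2 differences of -2.79 and -1.66, SE 0.20, n = 3). H2O2_endosperm was 1.51-fold below CK_endosperm with separate ranges, whereas H2O2_embryo overlapped CK_embryo (log2 difference -0.05, and 0.24 without replicate 1). Without that replicate, both remaining H2O2_embryo arrays lay above the 3 CK_embryo arrays.

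The second 6-SFT probe set of the same accession gave almost the same pattern under ABA. Its log2 differences from CK were -2.75 in ABA_embryo and -2.11 in ABA_endosperm (SE 0.25), and the group means were 1829 ± 249 in CK_embryo, 276 ± 65.2 in ABA_embryo, 2735 ± 267 in CK_endosperm and 644 ± 150.1 in ABA_endosperm (SD, n = 3). In H2O2_endosperm the log2 difference was -0.89 with separate ranges. In H2O2_embryo it was -0.36 with overlap, and 0.0027 without replicate 1. The remaining H2O2_embryo arrays, at 1733 and 1913, then lay within the CK_embryo range of 1609 to 2100, unlike those of the probe set marked a. Pearson's r between both probe sets was 0.977 over 18 arrays, which share treatments and tissues. A further pair of probe sets (CK170981) that the array places in the same sequence cluster, with no gene name of their own, read log2 differences of -2.68 and -2.71 in ABA_embryo and of -1.36 and -1.34 in ABA_endosperm. These too were in the study's lists for ABA, so they are the same measurement seen again and not independent evidence.

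Fructan 6-exohydrolase, which removes fructosyl units from fructan, had its highest signals under CK in both tissues. Its probe set, marked x, read 1416, 1351 and 1403 in CK_embryo, 992, 1089 and 1007 in ABA_embryo, and 611, 832 and 813 in H2O2_embryo. In endosperm the signals were 1463, 1573 and 1433 under CK, 629, 656 and 567 under ABA, and 674, 665 and 727 under H2O2. All treated arrays lay below all CK arrays of their tissue, and the order of the treatments differed between tissues: ABA_embryo was above H2O2_embryo, and ABA_endosperm was below H2O2_endosperm. The log2 differences from CK were -0.43 for ABA_embryo, -0.90 for H2O2_embryo, -1.27 for ABA_endosperm and -1.11 for H2O2_endosperm (SE 0.13). Without H2O2_embryo replicate 1 the value for H2O2_embryo was -0.76.

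SPS2, a sucrose-phosphate synthase, had the opposite ABA pattern to 6-SFT. It read 1018, 1031 and 1037 in CK_embryo and 3651, 3161 and 3219 in ABA_embryo, which is 3.24-fold higher. In endosperm it read 1047, 758 and 981 under CK and 3321, 1905 and 3012 under ABA, or 2.90-fold higher. No ABA array overlapped a CK or H2O2 array in either tissue. H2O2_endosperm, at 1134, 665 and 998, lay across the CK_endosperm range (log2 difference -0.02, SE 0.21). H2O2_embryo, at 601, 833 and 858, lay below CK_embryo by 0.45 on the log2 scale, or by 0.28 without replicate 1.

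SPS5, another isoform of the same enzyme, was also highest under ABA within each tissue, and its level differed with tissue. The signals were 67.0, 88.6 and 99.0 in CK_embryo, 224, 193 and 209 in ABA_embryo, and 62.5, 73.7 and 70.2 in H2O2_embryo. They were 268, 313 and 208 in CK_endosperm, 1035, 999 and 1010.3 in ABA_endosperm, and 362, 490.0 and 536 in H2O2_endosperm. ABA arrays lay 2.49-fold above CK in embryo and 3.91-fold above CK in endosperm, and H2O2_endosperm was 1.76-fold above CK_endosperm, all with separate ranges. In H2O2_embryo the signals overlapped those of CK_embryo (log2 difference -0.29, SE 0.23). A dim probe set of the same sequence cluster, with no name of its own, lay between 2.99 and 75.9 and overlapped CK in all 4 comparisons.

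For SPS9, the H2O2 signals lay on opposite sides of CK in embryo and endosperm, with separate ranges in both. It read 194, 213 and 205 in CK_embryo, 57.2, 105.5 and 112 in H2O2_embryo, 154, 162 and 142 in CK_endosperm, and 280.1, 398 and 357 in H2O2_endosperm. H2O2_embryo thus lay 2.32-fold below its control, and H2O2_endosperm 2.24-fold above its own, with no overlap on either side. Under ABA the embryo arrays (183, 162 and 215) overlapped CK_embryo, and the endosperm arrays (251, 208 and 239.5) lay above CK_endosperm. Leaving out H2O2_embryo replicate 1, the lowest array, changed the embryo log2 difference from -1.21 to -0.91.

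SPS1, the fourth sucrose-phosphate synthase, was lowest in ABA_embryo. Its probe set read 260.2, 202 and 165 in CK_embryo, 15.9, 9.71 and 68.2 in ABA_embryo, and 149, 151 and 122 in H2O2_embryo. In endosperm it read 899, 1129 and 954 under CK, 466, 339 and 288 under ABA, and 795, 721 and 851 under H2O2. All 6 groups had separate ranges, and in both tissues the order from high to low was CK, H2O2 and ABA. The log2 differences under ABA were -3.22 in embryo (SE 0.45) and -1.47 in endosperm. The embryo value is not exact, because 1 of its arrays lay under the floor of 10 and replicate 3 was well above the others: it was -4.03 without that replicate.

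Ss1, which cleaves sucrose into UDP-glucose and fructose, was lower in treated endosperm, and its embryo signals overlapped. Its probe set is marked s, so its signals may include transcripts of other genes. The signals were 6999, 6902 and 7102 in CK_endosperm, 2860.4, 3041 and 3035 in ABA_endosperm, and 2599, 2973 and 2497 in H2O2_endosperm. These are 2.35-fold and 2.61-fold below CK, and the ABA and H2O2 arrays overlapped each other. In embryo the signals were 12361, 11660.1 and 10563 under CK, 12839, 10714 and 13846 under ABA, and 19726, 8088 and 11220 under H2O2. The log2 differences were 0.11 for ABA_embryo and 0.08 for H2O2_embryo (SE 0.20). The latter rested on replicate 1, the highest array, and was -0.27 without it and 0.37 without replicate 2.

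AInv, an invertase active at neutral to alkaline pH that hydrolyses sucrose into glucose and fructose, lay on opposite sides of CK in the 2 tissues under both treatments. Its probe set, marked s, read 345, 409.5 and 405 in CK_embryo, 194, 187 and 237 in ABA_embryo, and 274, 281 and 322 in H2O2_embryo. In endosperm it read 111, 87.5 and 77.3 under CK, 154, 114 and 198 under ABA, and 297, 238 and 267 under H2O2. The embryo arrays lay below CK by 1.88-fold under ABA and 1.32-fold under H2O2, and the endosperm arrays above CK by 1.66-fold and 2.93-fold. Treated and CK ranges did not overlap in any of the 4 comparisons, although in ABA_endosperm the gap was small.

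**Figure D1:**
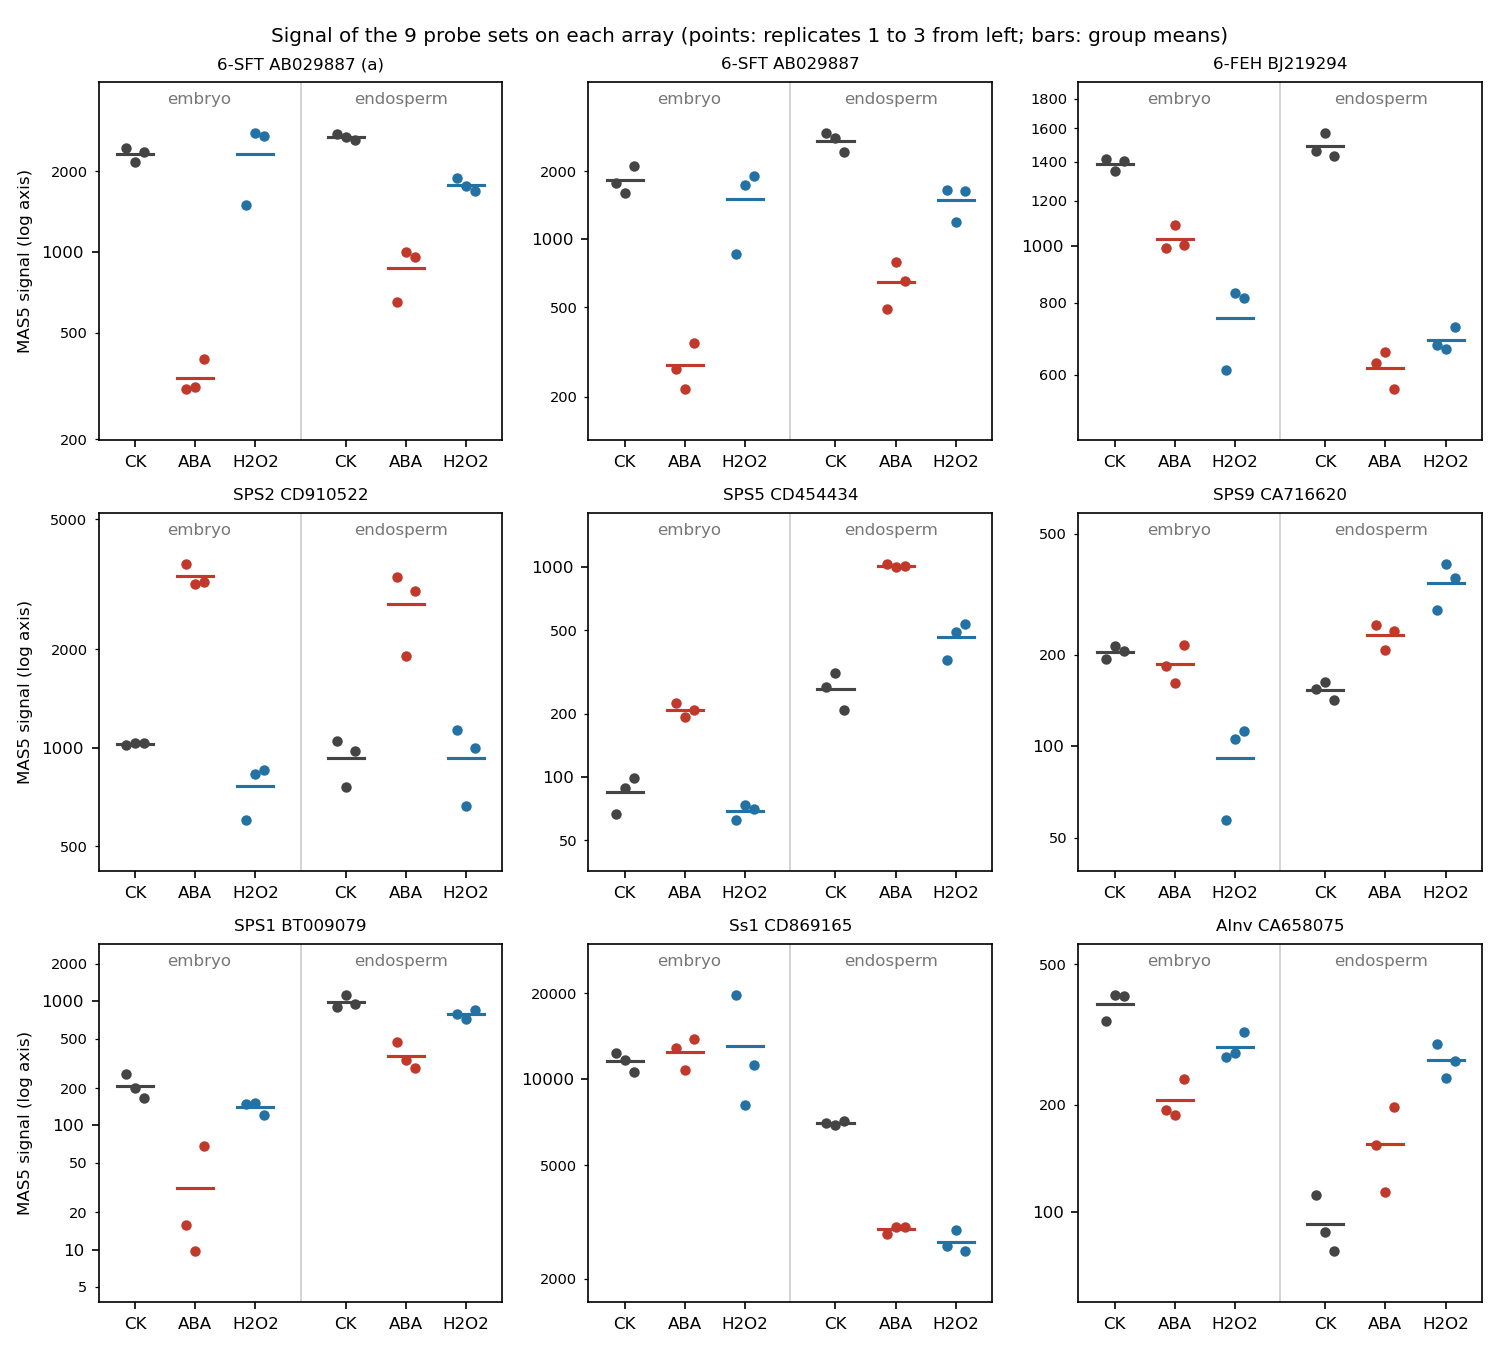
MAS5 signal (log axis) of each of the 9 probe sets on every array, by condition, with embryo on the left and endosperm on the right of each panel; points are replicates 1 to 3 and bars are arithmetic group means. Within each tissue, the ABA arrays are lowest for 6-SFT and SPS1 and highest for SPS2 and SPS5, and the low or high point in several H2O2_embryo groups is replicate 1.

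Counted over the 9 probe sets, the ABA_embryo range lay above that of CK_embryo for 2 and below it for 5, where this held for 11.1% and 16.4% of all probe sets. In ABA_endosperm, 4 lay above and 5 below CK, beside 10.9% and 15.2% of all probe sets. In H2O2_embryo, 0 lay above and 5 below, beside 9.48% and 7.90%. Without H2O2_embryo replicate 1 these were 1 and 5, beside 14.1% and 14.6%. In H2O2_endosperm, 3 lay above and 5 below, beside 12.5% and 11.8%. Since the lists were chosen for such differences, nothing is read from these counts. The median log2 difference of the 9 was -0.43 in ABA_embryo, -1.23 in ABA_endosperm, -0.40 in H2O2_embryo and -0.33 in H2O2_endosperm, beside -0.05, -0.10, 0.12 and -0.0045 over all probe sets. The value of 0.12 was -0.0091 without H2O2_embryo replicate 1. ABA and H2O2 were compared with the same CK arrays.

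**Figure D2:**
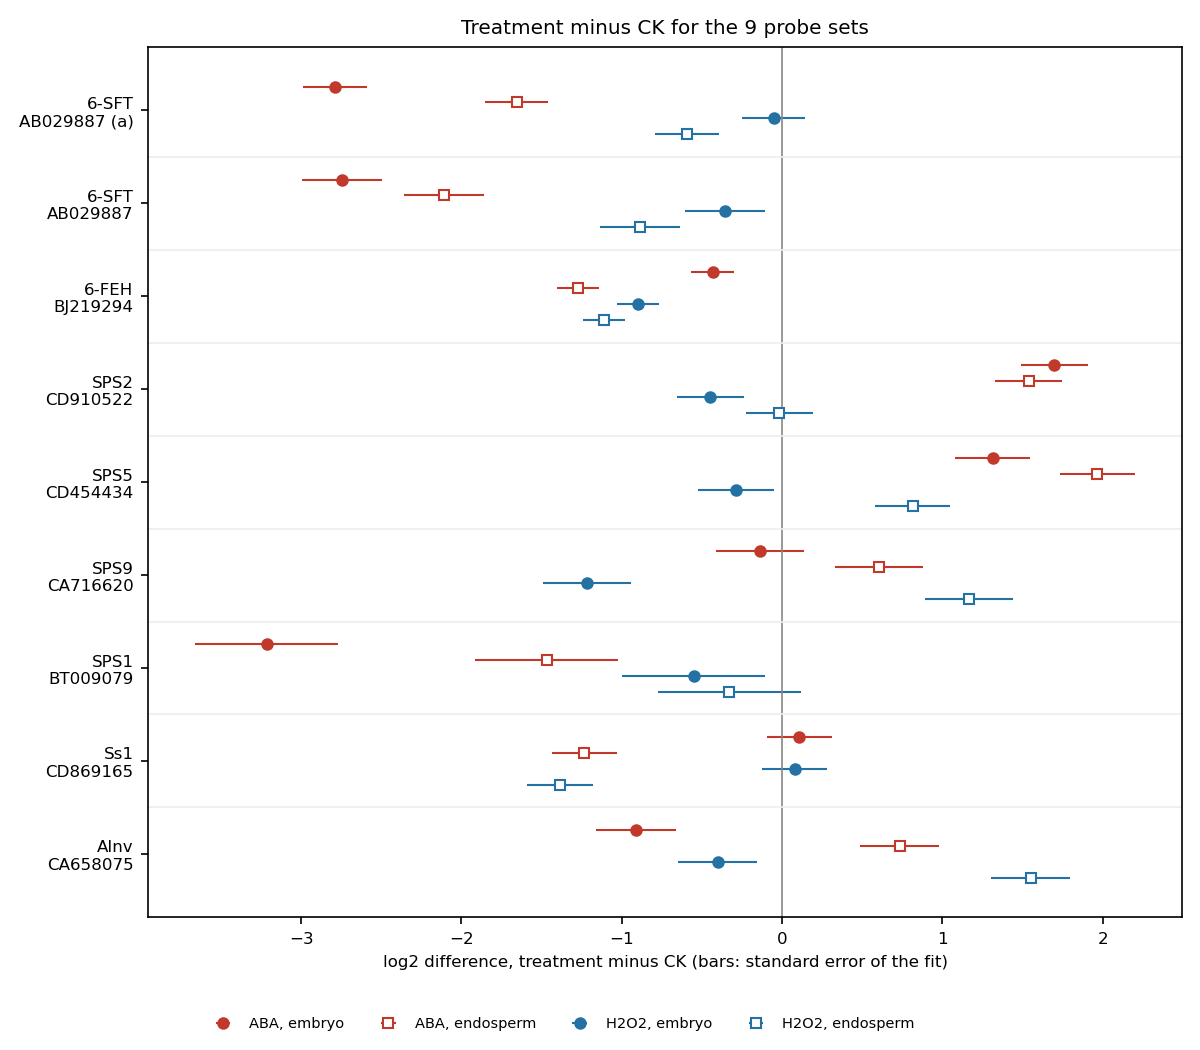
Log2 difference between treatment and CK (x axis) for each of the 9 probe sets, in embryo (filled circles) and endosperm (open squares) under ABA (red) and H2O2 (blue), with the standard error of the joint fit. SPS2 and SPS5 lie to the right of 0 under ABA in both tissues and 6-SFT and SPS1 to the left, while SPS9 under H2O2 (-1.21 and 1.16) and AInv lie on opposite sides in embryo and endosperm.

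In the comparison of embryo with endosperm over the 3 conditions, 8 of the 9 probe sets passed limma's test at an adjusted p of 0.05, where 31.2% of all 57992 probe sets did. Of these, 3 were higher in embryo (Ss1, AInv and 6-FEH, against 19.0% of all probe sets called higher) and 5 were lower (SPS1, SPS5, SPS9 and both 6-SFT probe sets, against 12.2%). The median log2 difference of the 9 was -0.41, beside 0.06 over all probe sets. Brighter probe sets passed more often. With a filter of 100 on at least 3 arrays, limma called 17919 of 32224 probe sets, and again 8 of the 9. Both 6-SFT probe sets belong to the same gene and are counted separately in the 8. The 9 were chosen for treatment differences on these arrays, so nothing is read from their share beside all probe sets. Among the sucrose-phosphate synthases, SPS1, SPS5 and SPS9 were lower in embryo, and SPS2 did not pass the test (log2 difference 0.07, SE 0.12, limma adjusted p = 0.734, and 0.13 without H2O2_embryo replicate 1).

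SPS1 had the widest tissue difference of the 9. It averaged 127 in the 9 embryo arrays and 716 in the 9 endosperm arrays, a log2 difference of -2.92 (SE 0.26, limma adjusted p = 1.3e-08), and each embryo array lay below each endosperm array. Ss1 had the reverse difference, with means of 12335 and 4223 and a log2 difference of 1.65 (SE 0.12, limma adjusted p = 5.9e-10), and every embryo array above every endosperm array. Of the 9, only these 2 had fully separate tissues, 1 in each direction, beside 3.81% of all probe sets wholly lower in embryo and 5.38% wholly higher. For SPS5 the log2 difference was -2.22 (SE 0.14, limma adjusted p = 5.3e-11), and the tissues overlapped where ABA_embryo reached the level of CK_endosperm. These averages also varied with the condition. Under CK, ABA and H2O2 the values were 0.72, 2.06 and 2.18 for Ss1 and -1.63, -2.28 and -2.73 for SPS5. They were -2.27, -4.01 and -2.49 for SPS1, where the ABA value is not exact because of the floor.

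The other called differences were smaller, and their values within the single conditions were likewise spread. AInv was higher in embryo by a log2 difference of 0.88 (SE 0.14, limma adjusted p = 4.7e-05), but this was 2.08 under CK, 0.44 under ABA and 0.13 under H2O2. SPS9 averaged -0.62 (limma adjusted p = 0.00414), with 0.42 under CK and -1.96 under H2O2. Both 6-SFT probe sets were lower in embryo, by 0.41 and 0.62 (limma adjusted p = 0.00906 and 0.00196), and read 0.33 and -0.06 under H2O2, or 0.62 and 0.31 without H2O2_embryo replicate 1. 6-FEH was 0.25 higher (limma adjusted p = 0.0140), with -0.10 under CK and 0.74 under ABA, and it lost the call when arrays were scaled to a common 75th percentile (0.07, limma adjusted p = 0.642) or normalized by quantiles (0.13, limma adjusted p = 0.261). Values within 1 condition were not tested. They share arrays with the study's lists, and so do the averages, which move with any condition that differs.

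**Figure D3:**
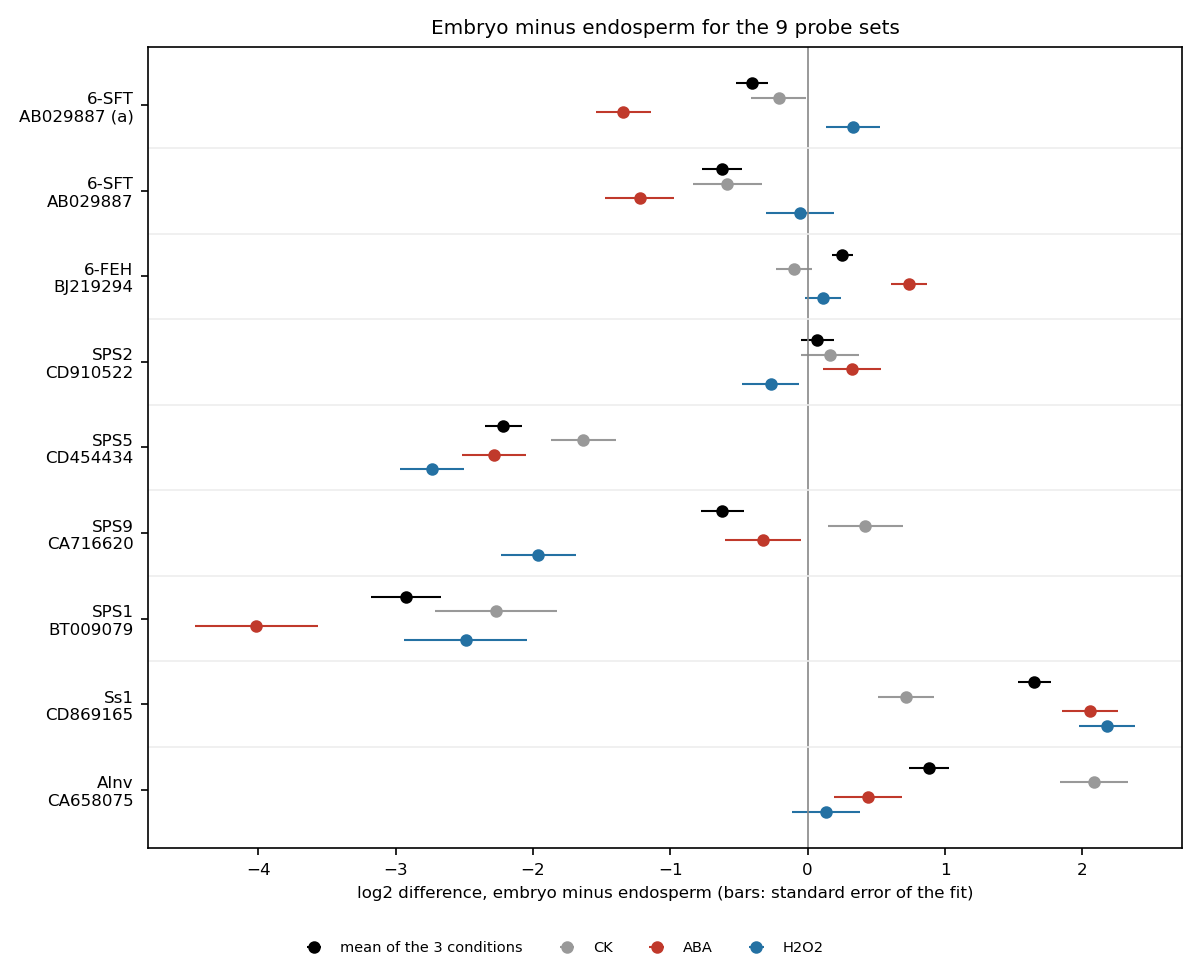
Log2 difference between embryo and endosperm (x axis) for each of the 9 probe sets, as the mean of the 3 conditions (black) and within CK (grey), ABA (red) and H2O2 (blue), with the standard error of the fit. SPS9, 6-FEH, SPS2 and the 6-SFT probe set marked a lie on both sides of 0, depending on the condition, and the other 5 on 1 side when all arrays are used.

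The array holds further probe sets annotated to 3 of these genes, which read the treatments to different degrees. The second AInv probe set (CA650885) read 2325, 2232 and 2237 in CK_embryo, 1395, 1444.5 and 1433 in ABA_embryo, 1203, 1187 and 1011 in CK_endosperm and 1396, 1389 and 1367 in ABA_endosperm. Its ABA log2 differences were -0.67 and 0.29 and its H2O2 differences -0.14 and 0.58, smaller than those of the first but of the same sign. Without H2O2_embryo replicate 1 the embryo H2O2 value turned to 0.09. It was higher in embryo by 0.44 (limma adjusted p = 0.000275), and r with the first was 0.871 over 18 arrays. The tissue call was lost with scaling to the 75th percentile (0.26, limma adjusted p = 0.0583). This probe set was in none of the study's lists.

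The pair of SPS9 probe sets did not share a pattern. The second, BT009472, lay between 1607 and 2723 on all arrays, with log2 differences from CK of 0.17, 0.04, 0.09 and 0.14 in ABA_embryo, ABA_endosperm, H2O2_embryo and H2O2_endosperm. The H2O2_embryo value was -0.09 without replicate 1. Over embryo and endosperm it was called in the opposite direction, 0.27 higher in embryo (limma adjusted p = 0.00961) against -0.62 for the other. With arrays scaled to the 75th percentile that call was lost (0.08, limma adjusted p = 0.435). Pearson's r between them was -0.38 over 18 arrays and 0.044 over the 17 arrays without H2O2_embryo replicate 1. The H2O2 differences of SPS9 therefore hold for 1 of its 2 annotated probe sets.

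For 6-FEH, a second probe set (BJ247599) read log2 differences from CK of -0.44, -1.20, -0.52 and -1.05 in ABA_embryo, ABA_endosperm, H2O2_embryo and H2O2_endosperm, close to those of the first probe set. The H2O2_embryo value was -0.83 without replicate 1, when both remaining arrays lay below CK_embryo. The probe set was in 3 of the study's lists. The annotation used here names it 6-FEH, whereas the paper groups it with cell wall invertases of sucrose breakdown. Its tissue difference was -0.20 and did not pass the test (limma adjusted p = 0.255), and it passed at -0.31 without H2O2_embryo replicate 1 (limma adjusted p = 0.00690), at -0.37 with quantile normalization (0.0192) and at -0.39 with scaling to the 75th percentile (0.0118). A further, dim one (BJ211844) lay between 7.14 and 279, the latter in H2O2_embryo replicate 1, and was higher in embryo (limma adjusted p = 0.00982). The size, 1.75 on the log2 scale, is not exact, since some endosperm arrays lay under the floor of 10. Array positions and sequences of the probes were not used here.

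**Figure D4:**
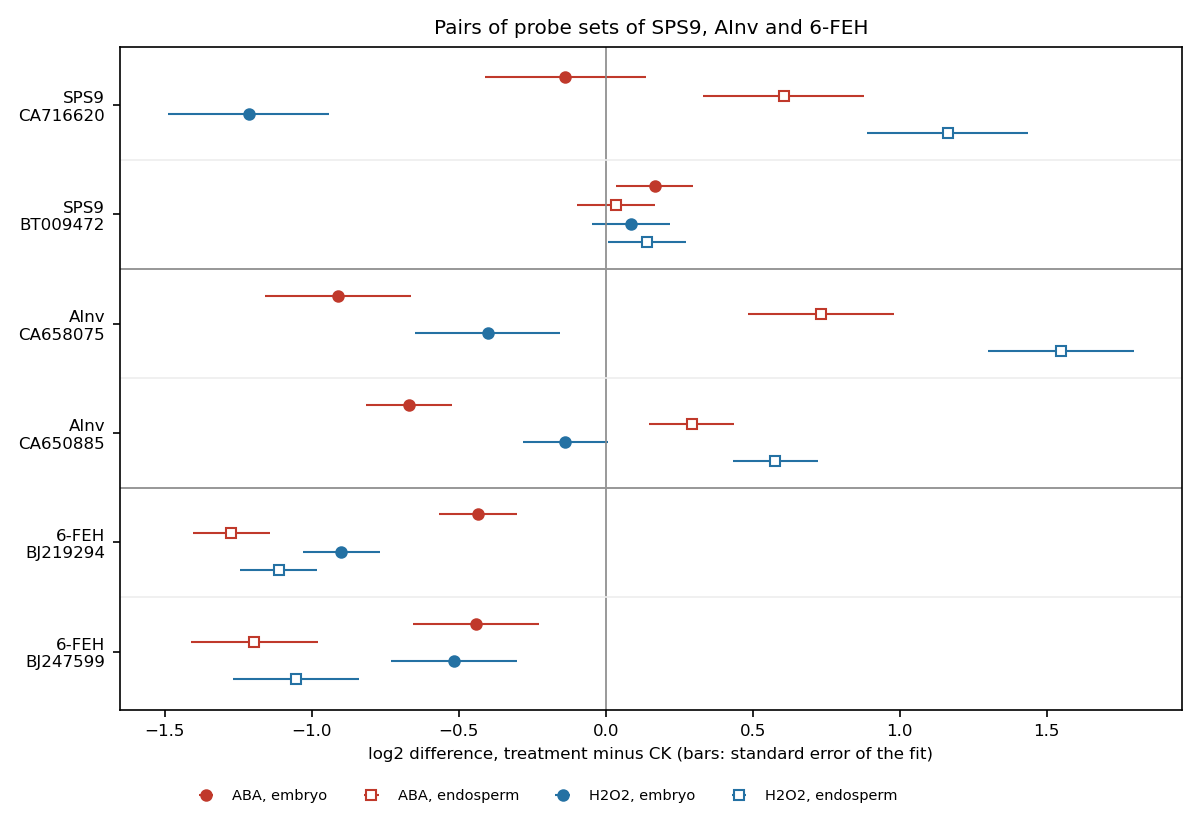
Log2 difference between treatment and CK (x axis) for pairs of probe sets annotated to SPS9, AInv and 6-FEH, in embryo (filled circles) and endosperm (open squares) under ABA (red) and H2O2 (blue), with the standard error of the fit. The AInv and 6-FEH pairs lie on the same side of 0 throughout, and the second SPS9 probe set lies within 0.17 of 0.

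The genes with the most similar profiles were looked up among 371 named probe sets over the 18 arrays, as a description. The names came from the array annotation and from the study's lists of probe sets changed by treatment on these arrays. The 371 thus include probe sets chosen for treatment differences, as the 9 were, and nothing is read from the height of r. SPS2 ran closest to 2 probe sets of Em, a late embryogenesis protein that ABA is known to induce (r = 0.964 and 0.954). SPS5 was closest to chitinase 3 (0.950) and a glutathione transferase (0.942), and 6-SFT to a histone H2B and the cold acclimation gene WCOR615 (0.929 and 0.895 for the probe set marked a, 0.902 and 0.941 for the second). SPS1 was closest to AdSS (0.917) and the MADS-box gene TaAGL14 (0.911), and Ss1 to TaAGL13 (0.922) and an expansin, EXPA8 (0.913). 6-FEH was closest to subunit E of the vacuolar proton ATPase (0.835) and a histone H2B (0.754). For AInv and SPS9 the order turned without H2O2_embryo replicate 1. AInv was closest to a sequence named topoisomerase II inhibitor (0.850) and a calcium-dependent protein kinase (0.816), which gave 0.850 and 0.909 over the other 17 arrays. SPS9 was closest to GTP cyclohydrolase 1 (0.876) and hexokinase (0.867), which gave 0.777 and 0.803. Among the 9 probe sets themselves, 6-SFT and SPS2 ran in opposite directions (r = -0.88). The 18 arrays fall into the same 6 groups for every pair, and no test was made of these values.

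Other genes of sucrose, fructan, starch and hexose phosphate metabolism were taken from the array annotation and not from the study's lists, and their treatment differences were tested. They were 7 probe sets of 6 genes: fructan 1-exohydrolase (1-FEH), the small subunit of ADP-glucose pyrophosphorylase (AGP-S), granule-bound starch synthase (GBSS), beta-amylase (BMY1), fructose-1,6-bisphosphatase (FBP) and phosphofructokinase (PFK). Probe sets of the genes described above were left out, and none of the 7 was in the study's lists. What remained leans towards probe sets without a treatment difference on these arrays, so nothing is read from low counts. In ABA_endosperm, 1 of 7 rose and 1 fell, beside 3.26% and 3.60% of all probe sets. In ABA_embryo, H2O2_embryo and H2O2_endosperm limma called 0 of 7, beside 5.74%, 0.531% and 5.46% of all probe sets. At an unadjusted p under 0.05 there were 1, 0 and 1 of 7, beside 13.3%, 14.2% and 17.3% of all probe sets. In ABA_endosperm there were 3 of 7, beside 18.4%.

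1-FEH, which removes the other type of fructosyl linkage, fell in ABA_endosperm from 15089, 14198 and 13934 to 8721, 8037 and 7930, a log2 difference of -0.81 (SE 0.12, limma adjusted p = 0.000145) with separate ranges. In ABA_embryo it read 5819, 5313 and 6361 against 8321, 7339 and 7009 (-0.37, limma adjusted p = 0.0858), and it passed the threshold without H2O2_embryo replicate 1 (limma adjusted p = 0.00185). Under H2O2 its log2 differences were -0.19 in embryo (-0.08 without replicate 1) and -0.09 in endosperm. It was lower in embryo by 0.82 over the 3 conditions (limma adjusted p = 7.9e-09). The H2O2 values of 6-FEH were -0.90 and -1.11, but 6-FEH was chosen on that treatment and the difference between the exohydrolases was not tested.

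AGP-S, a subunit of the enzyme that makes ADP-glucose for starch synthesis, rose in ABA_endosperm from 1223, 1381 and 1485 to 2390.4, 2095 and 2389, a log2 difference of 0.75 (SE 0.11, limma adjusted p = 0.000109). In embryo it read 3158, 3291 and 3378 under CK and 2826, 3179 and 2795 under ABA (-0.16, limma adjusted p = 0.676). The difference between these effects was itself past the threshold (-0.91, SE 0.15, limma adjusted p = 0.00132). It was higher in embryo by 0.92 (limma adjusted p = 3.3e-10). GBSS, BMY1, FBP and PFK had group means of 150 or less, with SEs of 0.61 to 0.97 on the log2 scale, so that differences of the size seen for 1-FEH and AGP-S were not detectable there. An FBP probe set had the largest difference, 2.11 in ABA_endosperm with separate ranges, and was not called. It read 4.66, 21.1 and 4.86 in CK_endosperm and 40.8, 67.4 and 62.2 in ABA_endosperm. Its H2O2_endosperm difference was 2.08. CK arrays under the floor of 10 make both sizes inexact.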

How the data were processed

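Signals of 18 Affymetrix Wheat Genome Arrays were used, 3 per group, with groups taken from the labels. The authors made the deposited intensity values with Microarray Suite 5.0 (MAS5), which scales each array to a common target, with 1 column per array; detection calls were not used here. Signals under 10 were set to 10, log2 was taken, 111 control probe sets were left out, and probe sets had to reach 20 in 3 or more arrays. All 18 arrays were fitted to 6 group means with limma 3.58.1 (R 4.3.3; lmFit, eBayes with trend), and p-values were adjusted over all 57992 probe sets by the Benjamini-Hochberg method at 0.05. Folds are 2 to the power of a log2 difference. The fit was tested on simulated data. The authors' fold changes and test results in the supplementary lists were not used. Accessions, gene symbols, gene names, gene IDs, list names and listed directions were taken from them. Members and lists were chosen with earlier results of these data known. Word rules for other pathway genes and tissue markers matched 0 probe sets, since the annotation tables hold gene symbols and synonyms but no descriptions, so both lists were rebuilt from gene symbols before their signals were read. All members were named, each with the 2 most correlated named probe sets. Floors, filters, scaling, the trend, a replicate block, a threshold of 0.01 and leaving out each array were the alternatives. The number of arrays limits the precision. Sequences and genome positions were not analysed here.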

Additional observations from a re-analysis of the deposited data

Results flagged for a closer look

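Treatment differences that were unlike in embryo and endosperm drew attention. Each value here is the log2 treatment difference in embryo minus that in endosperm. For AGP-S under ABA it was -0.91, and limma's interaction term was past the threshold (adjusted p = 0.00132; range over the alternatives 1.3e-05 to 0.0385), with every ABA_endosperm array above every CK_endosperm array. The ABA_embryo arrays of AGP-S overlapped CK_embryo (-0.16, limma adjusted p = 0.676). For the following probe sets every treated array lay on 1 side of the CK mean in embryo and on the other in endosperm, and the difference was not tested, because the genes came from lists made on these arrays or belong to them. It was -2.38 for SPS9 under H2O2 (-2.07 without H2O2_embryo replicate 1) and -1.10 for SPS5 under H2O2, where the embryo signals overlapped CK. It was -1.64 under ABA and -1.95 under H2O2 for the first AInv probe set, and -0.96 under ABA for the second. It was 0.94 under H2O2 for 1 of the unnamed probe sets (CK170981, marked x) of the 6-SFT cluster.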

How the results depend on the processing

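The count of 8 of 9 probe sets called between the tissues became 7 with quantile normalization, with scaling to the 75th percentile and at a threshold of 0.01, and it was 8 whichever single array was left out. Scaling to the 75th percentile shifted the median tissue difference of all probe sets by -0.16, and the calls split into 7988 higher and 9585 lower in embryo, against 11041 and 7074. Calls in all probe sets ran from 16876 to 20932 without 1 array. Of the other pathway genes in ABA_embryo, 1 in place of 0 was called with a floor and filter of 110, with a filter of 100, with quantile normalization and without H2O2_embryo replicate 1, a range of 0 to 1 without 1 array; this was 1-FEH. SPS2, which was not called, changed sign between the tissues with quantile normalization (-0.0079), with scaling to the 75th percentile (-0.11), without ABA_endosperm replicate 2 (-0.010) and without H2O2_endosperm replicate 2 (-0.0042). Without 1 array at a time its values ran from -0.010 to 0.13. The second 6-SFT probe set in H2O2_embryo turned from -0.36 to 0.0027 without replicate 1, with a range of -0.57 to 0.0027 without 1 array. The cause was not tested. With a replicate block, the counts were 8 of 9 probe sets and 17976 of all probe sets, and no call of these genes changed. Over all probe sets, deviations from the group mean gave r from -0.037 to 0.074 for same-numbered arrays. Arrays of other numbers gave -0.073 to 0.062. Such values over all probe sets cannot exclude that arrays were paired or that single probe sets deviate together. Low signals limit SPS1 in ABA_embryo, whose log2 difference was -2.32 with a floor of 32 and -0.90 with a floor and filter of 110.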
